A study of Homo sapiens with 4 samples.

Results

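The inflammatory caspase cluster lies on the long arm of chromosome 11 and was taken as 5 genes around CARD16: CASP1, CASP4, CASP5, CARD16 and CARD18, of 20046 protein-coding genes in GENCODE 44. The members were chosen on the measured peaks, because control peaks of the locus were missing from the cadmium list, so the counts of peaks at the locus are a description and carry no test. All peaks from 50 kb before the first to 50 kb after the last member were examined, which gave a window at chr11:104892866-105581697 (hg38, 689 kb). It held 8 of the 129429 peaks of both lists, 7 in the control list and 1 in the cadmium list.

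MTF-1, a zinc finger transcription factor that responds to metals and is known to act through metal response elements in the metallothionein promoters, was profiled by CUT&RUN, in which an antibody (here anti-MTF1) guides a nuclease to a bound protein and the released DNA is sequenced. The cells were MDA-MB-231, an established human breast cancer line. The control group of 2 libraries was untreated and passaged in normal medium, and the cadmium group of 2 libraries came from cells passaged in rising doses of cadmium sulfate and then kept at 10 µM, so cadmium itself and the selection of resistant cells during passaging cannot be told apart. The authors merged the libraries of each group and then called peaks, which left 1 list of peak positions per group. The lists hold no read count, no height and no replicate spread, so the depth is unknown, a site is either listed or not, and every comparison of the 2 lists has no replicate check. Peak positions carry no expression, so the identity of the cell line could not be checked against marker genes.

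Inflammatory caspases are the proteases of the inflammasome, the complex that forms when a cytosolic sensor detects infection or damage. Caspase-1, the product of CASP1, is recruited through its caspase recruitment domain (CARD), matures interleukin-1 beta and interleukin-18 and cleaves gasdermin D, whose pores cause the lytic cell death called pyroptosis. The products of CASP4 and CASP5 bind bacterial lipopolysaccharide directly and cleave gasdermin D in the non-canonical pathway. CARD16 and CARD18 encode proteins that consist of little more than a CARD and are known to bind caspase-1 and restrain it. In epithelial and tumor cells, CASP4 is commonly expressed, whereas CASP1 and CASP5 are best known from myeloid cells.

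The sequences that carry the peaks are shown first, since they show what the control list marked at this locus. All are from the hg38 reference genome, and capitals mark forkhead strings (the letters ATAAACA and the variant strings ATAAATA, then GTAAACA, and then GTAAATA), AP-1 strings (either TGACTCA or its reverse complement TGAGTCA) and cores of the metal response element (either TGCACNC or the form TGCGCNC), each searched on both strands. Forkhead (FOX) and AP-1 (FOS/JUN) strings were searched because of the study's motif scan of these same peak lists. In it, FOX motifs were enriched in peaks lost in cadmium and FOS/JUN motifs in peaks gained. The core was searched because it belongs to the known element of MTF-1. A match is a description of the letters and not evidence of a bound site. The first sequence is 300 bases of the peak upstream of the CARD16 start (chr11:105047150-105047449, plus strand), the peak of the window in which all 3 kinds of string occurred in the 500 bp around the centre. The next is from the first intron of CASP4 in the peak over its start (chr11:104968399-104968518, minus strand, the strand of the gene). Then follow stretches of the peak upstream of the main CARD18 transcript (chr11:105144920-105145079, plus strand), of the shared peak (chr11:105244489-105244608, plus strand) and of the last control-only peak (chr11:105466759-105466878, plus strand).
CARD16 upstream peak: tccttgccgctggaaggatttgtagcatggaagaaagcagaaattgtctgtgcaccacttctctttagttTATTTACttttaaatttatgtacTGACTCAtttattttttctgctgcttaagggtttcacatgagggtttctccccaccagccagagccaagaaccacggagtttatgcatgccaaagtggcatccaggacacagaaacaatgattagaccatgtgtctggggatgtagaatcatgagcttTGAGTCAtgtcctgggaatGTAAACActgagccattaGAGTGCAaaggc
CASP4 start peak, first intron: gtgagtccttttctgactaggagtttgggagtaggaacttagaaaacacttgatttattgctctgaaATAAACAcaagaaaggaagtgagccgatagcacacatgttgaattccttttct
peak after CARD18: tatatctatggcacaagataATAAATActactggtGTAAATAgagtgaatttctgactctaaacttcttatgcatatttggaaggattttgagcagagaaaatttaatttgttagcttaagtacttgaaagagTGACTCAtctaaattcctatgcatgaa
shared peak: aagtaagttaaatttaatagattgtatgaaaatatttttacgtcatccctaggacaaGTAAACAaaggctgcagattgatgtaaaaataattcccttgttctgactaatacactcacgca
last control-only peak: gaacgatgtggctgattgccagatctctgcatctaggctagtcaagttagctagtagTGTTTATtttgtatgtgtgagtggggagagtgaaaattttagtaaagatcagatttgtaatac

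All 5 genes are on the minus strand, so each starts at its higher coordinate. In order along the chromosome, the genes are CASP4 (ENSG00000196954.14, chr11:104942866-104969366), CASP5 (ENSG00000137757.11, chr11:104994235-105023168), CASP1 (ENSG00000137752.25, chr11:105025397-105035250), CARD16 (ENSG00000204397.10, chr11:105041326-105101431) and CARD18 (ENSG00000255501.3, chr11:105137714-105531697). The last 2 spans come from long GENCODE transcripts. The MANE Select transcripts, the representative transcripts agreed on by RefSeq and Ensembl, measure 3.77 kb for CARD16 and 2.06 kb for CARD18, against 9.64 kb for CASP1, 25.7 kb for CASP4 and 28.9 kb for CASP5. Ending each gene at its MANE Select transcript, an alternative chosen after seeing the data, shortened the window to 297 kb (chr11:104892866-105189769), which held 5 control peaks, all absent from the cadmium list, and 0 cadmium peaks.

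Of the 7 control peaks in the window, 6 shared no base with a cadmium peak and 1 was shared, so 85.7% were in the control list only. Over the genome the same class held 19369 of 69299 control peaks, or 27.9%. The single cadmium peak was the shared one, and 0 cadmium peaks were found in the cadmium list only, where the genome had 9074 of 60130, or 15.1%. Control peaks covered 5593 bp of the window and the cadmium peak covered 399 bp, which corresponded to 1.02 and 0.145 peaks per 100 kb. The genome had 2.36 control and 2.05 cadmium peaks per 100 kb, so the window was thinner than the genome in both lists and far thinner in the cadmium list. The map of both lists shows control peaks at CASP4, CARD16 and on both sides of CARD18, with the only cadmium peak of the window in the long CARD18 span.

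**Figure D1:**
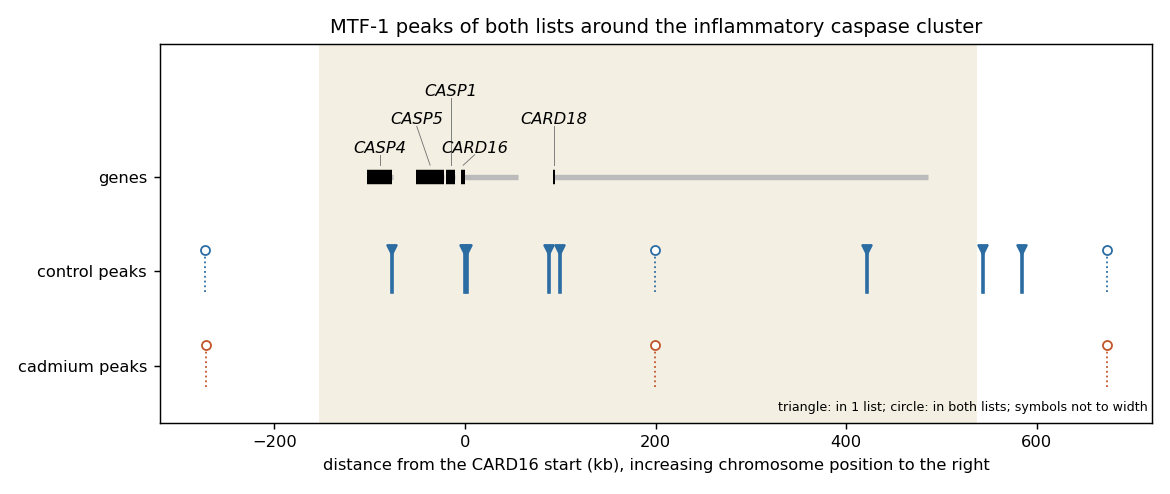
Map of the caspase cluster with distance from the MANE Select start of CARD16 in kb on the x axis (chromosome position rises to the right) and rows for the genes, the control peaks and the cadmium peaks. Black bars are MANE Select transcripts, grey bars the full gene spans, shading the 689 kb window, triangles peaks found in 1 list and circles shared peaks. The 5 triangles over and between the genes have no cadmium peak beneath them, and the nearest cadmium circles lie 272 kb before and 199 kb after the CARD16 start.

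CASP4 and CARD16 were the members with a control peak at a start. The widest control peak of the window, 1599 bp at chr11:104967601-104969199, covered the start of CASP4, with its centre 147 bp downstream of the closest annotated start and with exon, coding and UTR sequence of CASP4 inside it. Among all control-only peaks, 71.5% were narrower. The start of CARD16 was covered by a 799 bp peak at chr11:105045201-105045999, whose centre was 265 bp upstream of the MANE Select start. A second CARD16 peak of 599 bp followed at chr11:105047001-105047599, 1965 bp upstream of that start and inside an intron of the long CARD16 transcript. Neither gene had a cadmium peak within reach of its start: the nearest lay 195 kb from the MANE Select start of CASP4 and 199 kb from that of CARD16.

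No peak of either list overlapped CASP1 or CASP5. The nearest control peak was the one over the CARD16 start, 10.1 kb from the CASP1 start and 22 kb from the CASP5 start, and the nearest cadmium peak was 209 kb and 221 kb away. CARD18 had control peaks on both sides of its MANE Select transcript but none over it. On the downstream side, a 999 bp peak at chr11:105132801-105133799 lay in intergenic sequence with its centre 5982 bp from the closest CARD18 start. On the upstream side, a 399 bp peak at chr11:105144801-105145199 lay 5231 bp from the MANE Select start, in an intron of the long CARD18 transcripts. Its near edge was 5.03 kb from that start, whereas the nearest cadmium peak was 105 kb away.

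The other 2 control peaks of the window lay in introns of the long CARD18 transcripts, far from the coding part. The shared site was a 799 bp control peak (chr11:105244401-105245199) and a 399 bp cadmium peak (chr11:105244401-105244799), closest to the start of the gene ENSG00000255336, at 2260 bp from the control centre and 2460 bp from the cadmium centre, and 105031 bp upstream (control centre) of the CARD18 MANE Select start. The last was a 399 bp control-only peak (chr11:105466601-105466999), 49.2 kb from the start of a long CARD18 transcript. Peaks of 399 bp span 2 of the caller's 200 bp bins and were at the narrow end of the lists, with 3.62% of all control-only peaks narrower. By width, then, the control-only peaks of the window ran from 399 to 1599 bp with a median of 699 bp, below the median of 999 bp over all control-only peaks and of 1399 bp over all control peaks.

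Just beyond the window the control list continued alone. A 2599 bp control-only peak lay 5503 bp outside it (chr11:105587201-105589799), 21 kb upstream of the closest start of GRIA4, which encodes a subunit of AMPA glutamate receptors, and a 599 bp control-only peak lay 48303 bp outside (chr11:105630001-105630599), within GRIA4. On the other side, the nearest peak of either list was a shared site 119466 bp before the window, with CASP12 as the closest protein-coding gene, at 126314 bp from the control centre. CASP12 encodes a further member of the caspase family, which is inactive in most people. Neither CASP12 nor the pseudogene CASP4LP, both of which lie between that site and CASP4, had a peak.

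The stretch without cadmium peaks that held all 5 MANE Select transcripts ran over 471 kb (chr11:104773400-105244400) and contained 5 control peaks covering 4395 bp. It was the 728th longest of 59945 stretches between neighbouring cadmium peaks, counted without those that span a run of at least 1000 unknown bases. Thus 1.21% of stretches were as long, against a median of 13.4 kb, and on chromosome 11 it ranked 39 of 2861. These ranks count stretches and not bases. A longer stretch covers more sequence, so the share of sequence in stretches this long is higher than 1.21%, and it was not computed. The following stretch, over the long CARD18 transcripts and into GRIA4, was 474 kb with 3 control peaks. Together these stretches are interrupted by the shared 399 bp cadmium peak alone.

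Long stretches usually held few control peaks. Among the 728 stretches at least as long as the one over the cluster, the median was 1 control peak (quartiles 0 and 2), 313 had none and 73 (10%) had at least 5, up to 14. The plot of stretch length against control peaks places the cluster among those 73. Counted along the control list, the 5 peaks formed a run of 5 neighbouring control-only peaks. Of 12205 such runs in the genome, 352 (2.88%) were as long or longer, the longest had 16, and 2215 control-only peaks (11.4%) belonged to runs of at least 5. Runs were counted after the data had been seen.

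**Figure D2:**
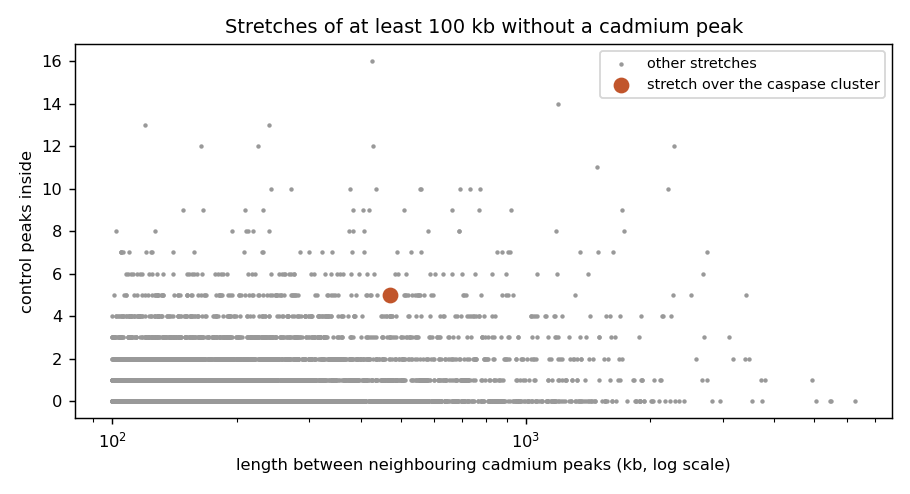
Each point is a stretch of at least 100 kb between neighbouring cadmium peaks, with its length in kb on a log x axis and the number of control peaks inside it on the y axis. The large point is the stretch over the caspase cluster (471 kb, 5 control peaks), which sits above most stretches that are at least as long, where the median was 1.

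The shared sites that border the stretch were narrower in the cadmium list. Before the cluster, the control peak measured 2599 bp and the cadmium peak inside it 399 bp. After it, the control peak measured 799 bp and the cadmium peak 399 bp. Over the genome, 30745 of 51056 shared cadmium peaks (60.2%) were overlapped by control peaks of greater total width and 11400 (22.3%) by control peaks of smaller total width, so a wider control peak was the common case and the 2 borders are read against that share.

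The surroundings of the cluster held a high share of control-only peaks as well. In the 5 Mb on either side of the window, 118 of 242 control peaks (48.8%) and 2 of 130 cadmium peaks (1.54%) were in 1 list only. On the whole of chromosome 11 the shares were 1409 of 3814 (36.9%) and 355 of 2866 (12.4%). In 14 steps of 10 Mb along the chromosome, the share of control-only peaks ranged from 15.6% to 62.5%, and the step centred on CARD16 had 113 of 223, 50.7% (95% Wilson interval 44.2 to 57.2%, which covers counting error only), the 3rd highest. Its share of cadmium-only peaks was 1.74% (2 of 115). From the step 30 Mb before CARD16 to the last step, every share was at least 41.3%, above the genome's 27.9%. The steps 70, 80 and 90 Mb before CARD16 were also above it, at 35.4%, 48.5% and 32.6%. Those 40, 50, 60 and 100 Mb before CARD16 were below it, at 15.6%, 22%, 23.3% and 26.6%. The flanks and the steps were examined after the locus was known, and the part that this broad pattern has in the counts at the cluster was not tested.

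**Figure D3:**
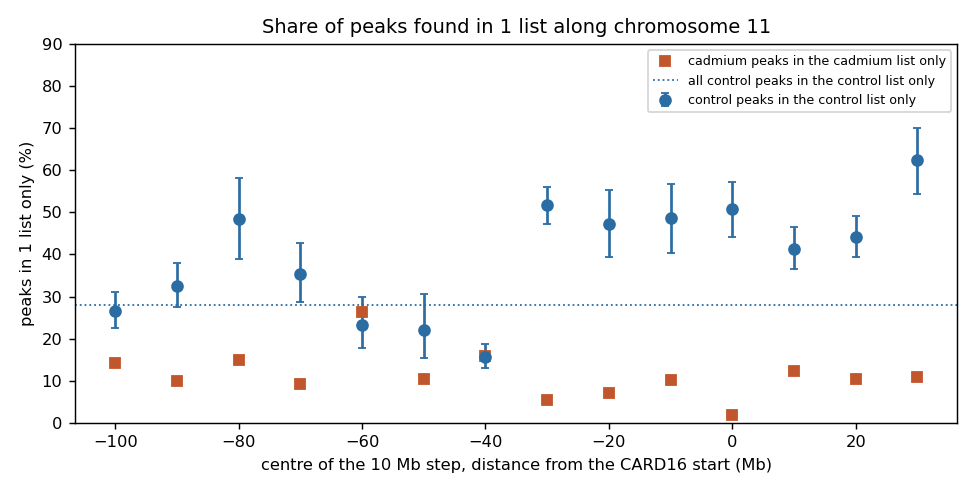
Share of control peaks found in the control list only (circles, with 95% Wilson intervals) and of cadmium peaks found in the cadmium list only (squares), in percent, for 14 steps of 10 Mb along chromosome 11, placed by the distance of the step's centre from the CARD16 start in Mb. The dotted line is the share over all control peaks (27.9%). The step over CARD16 (50.7%) is part of a block of 7 steps that all lie above that line. The steps 70, 80 and 90 Mb before CARD16 lie above the line as well, and the other steps before the block lie below it.

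At the transcription start sites (TSS), the members were set beside the rest of the inflammasome pathway, taken from gene lists that were chosen with earlier results of these data known. A gene counted as having a start site peak when any base of a peak lay within 1 kb of any of its annotated transcript starts. Of the 5 members, 2 had a start site peak in the control list only (CASP4 and CARD16), 3 in neither list (CASP1, CASP5 and CARD18) and 0 in both. Of all protein-coding genes, 70% had one in both lists, 3.2% in the control list only, 1.5% in the cadmium list only and 25.3% in neither. In the 59 pathway genes outside the cluster, 44 (74.6%) had one in both lists, 3 (5.08%) in the control list only, 1 (1.69%) in the cadmium list only and 11 (18.6%) in neither. The members were selected on these peaks, so their own count is not set against the background as a result.

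**Figure D4:**
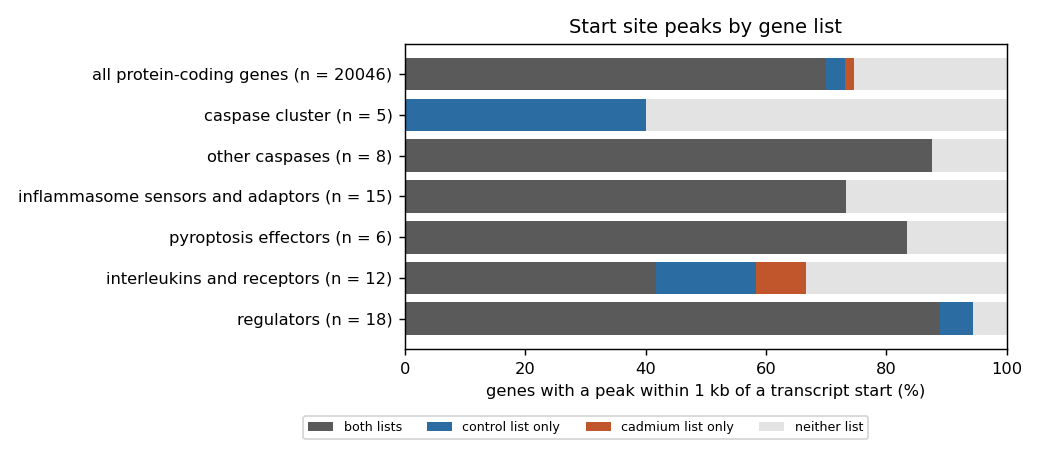
Stacked bars give the percent of genes with a peak within 1 kb of a transcript start in both lists, the control list only, the cadmium list only or neither list, for all protein-coding genes, the caspase cluster and 5 pathway lists. The bar of the caspase cluster describes genes chosen on these peaks, with 2 of 5 in the control list only and 3 in neither, and the pathway lists together had 44 of 59 genes in both lists.

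Of the 8 caspases outside the cluster, 7 (87.5%) had a start site peak in both lists, where all protein-coding genes had 70%, and CASP14, known from the skin, had none in either. CASP8, the initiator caspase of death receptors, had a 4599 bp control and a 2999 bp cadmium peak, and its neighbour CASP10 had 1399 and 399 bp. CASP9, the initiator of the mitochondrial pathway, measured 4599 bp in both lists. Across these 7 genes the control peak was the wider one in 5 and of equal width in 2, taking the widest peak at any start of a gene. Over all pathway genes whose widest peaks overlapped, control was wider in 20 of 36. Over the genome, control peaks were wider at 60.2% of shared cadmium peaks. That share is a different measure, taken per cadmium peak at any position and by the total width of overlapping control peaks. The widest start site peak was not compared over all genes.

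In the list of inflammasome sensors and adaptors, 11 of 15 genes (73.3%) had a start site peak in both lists and 4 (26.7%) in neither (MEFV, NAIP, NLRC4 and NLRP7). These shares were near the 70% and 25.3% of all protein-coding genes. DPP8 and DPP9, which are neither sensors nor adaptors, are part of this list and had a start site peak in both peak lists. NLRP3, the sensor of membrane damage and potassium efflux, had a 1199 bp control and a 1399 bp cadmium peak, and PYCARD, the adaptor ASC that joins sensors to caspase-1, had 3399 and 4199 bp. AIM2, the sensor of cytosolic DNA, had 999 bp in both. At NLRP6 the widest control peak was 6799 bp and the widest cadmium peak 599 bp, and these did not overlap each other (chr11:279601-286399 and chr11:277401-277999). By width, control was wider in 3, equal in 2 and narrower in 4 of the 9 genes whose widest peaks overlapped.

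Of the pyroptosis effectors, taken as the gasdermin genes and NINJ1, 5 of 6 (83.3%) had a start site peak in both lists, against 70% of all protein-coding genes. GSDMB had one in neither. This list was not limited to genes that act downstream of the caspases of the cluster. At GSDMD, the pore-forming substrate of the inflammatory caspases, the widest control peak (4799 bp) and the widest cadmium peak (3399 bp) did not overlap. NINJ1, which ruptures the plasma membrane, had 2599 and 5799 bp. Of 12 interleukins and receptors of the interleukin-1 family, 5 (41.7%) had one in both lists, among them both cytokine substrates of caspase-1, IL1B (1199 and 599 bp) and IL18 (1599 and 999 bp).

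Outside the cluster, 3 of 59 pathway genes (5.08%) had a start site peak in the control list only and 1 (1.69%) in the cadmium list only. Over all protein-coding genes the shares were 3.2% and 1.5%. Of the 12 interleukins and receptors, 2 (16.7%) were in the control list only and 1 (8.33%) in the cadmium list only. IL1A, which encodes interleukin-1 alpha, had a 599 bp control peak at chr2:112784201-112784799, and IL18BP, the secreted inhibitor of interleukin-18, a 2799 bp control peak at chr11:71999401-72002199. P2RX7, the ATP-gated channel that triggers NLRP3, had a 2399 bp control peak at chr12:121131201-121133599. IL1R2, the decoy receptor of interleukin-1, was in the cadmium list alone, with a 1199 bp peak at chr2:102002401-102003599. IL1RN, IL18RAP, IL33 and IL37 had no start site peak in either list. Of 18 regulators, 16 (88.9%) had one in both lists, against 70% of all protein-coding genes. The other regulators were P2RX7 (5.56%) and PYDC2, which had none in either list (5.56%, against 25.3% of all protein-coding genes). IRF1 and IRF2, transcription factors of interferon and inflammasome genes, were in both lists. At IRF1 the widest control peak (8199 bp) and cadmium peak (5399 bp) did not overlap, and at IRF2 the overlapping peaks measured 3599 and 3399 bp. GBP2, a guanylate-binding protein that exposes lipopolysaccharide to caspase-4, measured 2199 bp in control and 399 bp in cadmium. The status of IL1R2 rested on the definition of a start site, since it was in both lists within 3 kb and in neither when the peak centre had to lie within 1 kb. Pathway genes in the cadmium list alone numbered 0 within 3 kb and 3 when only starts of coding transcripts counted, in place of 1.

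Each of the 6 control-only peaks of the window had at least 1 forkhead string within 500 bp around its centre (100%, 95% Wilson interval 61 to 100%, counting error only). Over all control-only peaks the share was 41.1%, and over all control peaks 30.5%. The forkhead family was chosen because the study found it enriched in these same control-only peaks, so that difference is not independent support. The window is poor in G and C (36.0% against 40.9% of the genome), and its control-only peaks had a median GC content of 37.5% against 43.6% for all control-only peaks. Among the 6695 control-only peaks in the same GC range (29.8 to 40.6%, a range taken after seeing the data), 57.3% had a forkhead string. The strings are AT-rich, so this share is the closer background.

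AP-1 strings were in 2 of the 6 peaks (33.3%) and the metal response element core in 3 (50%), with intervals of 9.68 to 70% and 18.8 to 81.2%. Over all control-only peaks the shares were 24.5% and 28.8%, and in the same GC range 29.1% and 16%. The 6 peaks are neighbours at a locus chosen on its control-only peaks, so the intervals do not test them against these shares. With 200 bp around the centre, 0 of 6 peaks had the core, against 6.24% in that GC range. With 200 bp, 5 of 6 peaks had a forkhead string (83.3%, interval 43.6 to 97%), against 30.1% in that GC range, and 2 had an AP-1 string. The whole peaks held forkhead strings in 6, AP-1 strings in 3 (50%) and the core in 4 (66.7%), against 60.2%, 41.2% and 48.4% over all control-only peaks and 67.3%, 42.9% and 30.4% in the GC range.

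The forkhead strings differed between the peaks in kind and number. The CARD16 upstream peak printed above had 3 (GTAAATA on the minus strand at chr11:105047220-105047226, and GTAAACA on the plus strand at chr11:105047420-105047426 and chr11:105047518-105047524, the last outside the printed bases) and AP-1 strings at chr11:105047243-105047249 and chr11:105047401-105047407. The CASP4 start peak had 1, ATAAACA at chr11:104968445-104968451 in the first intron, and 2 cores. The peak before CARD18 had 8 over its whole width, of which 4 overlap one another, so they are not separate matches. In the peak after CARD18, ATAAATA and the form GTAAATA were close neighbours, at chr11:105144940-105144946 and chr11:105144955-105144961.

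The shared peak also carried forkhead strings. Its GTAAACA at chr11:105244546-105244552 was inside both the control and the cadmium peak, and the 2 AP-1 strings and the other 2 forkhead strings of the control peak lay in the part that the cadmium peak did not cover. Forkhead strings were therefore not particular to the sites that the cadmium list lacked. The plot of peak widths and strings shows the position of each match.

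**Figure D5:**
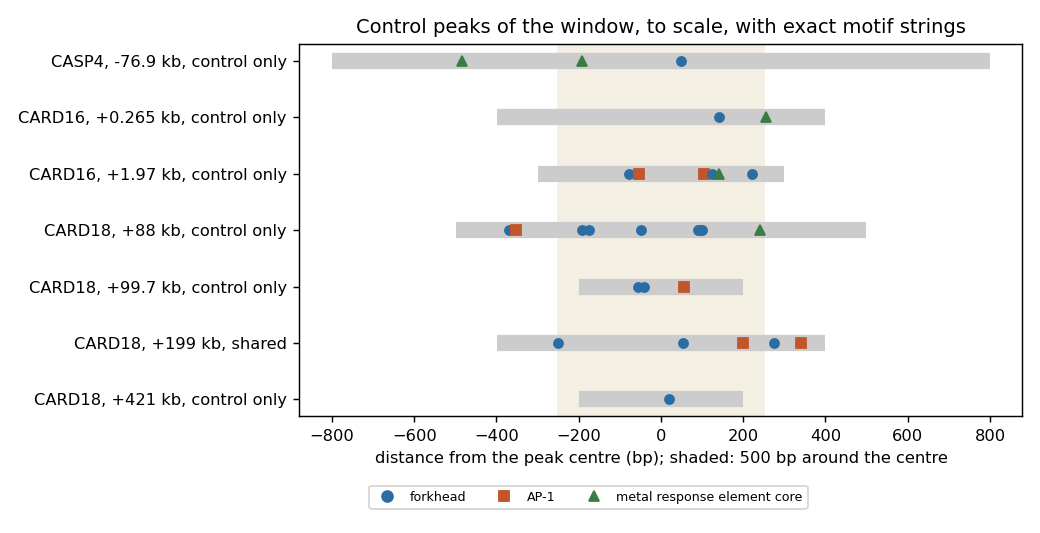
The 7 control peaks of the window drawn to scale (grey bars) by distance from the peak centre in bp, with the closest protein-coding gene and the distance of the peak from the CARD16 start in kb. Circles are forkhead strings, squares AP-1 strings and triangles metal response element cores, and shading marks 500 bp around the centre. Every bar has at least 1 circle within the shading, and the bars range from 399 to 1599 bp.

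The members arose by duplication, and the peaks at their starts lie in duplicated sequence. The coding sequence of CARD16 (291 bp) matched the first 291 bp of CASP1 at 283 positions (97.3%), the part that encodes the CARD, and CARD18 (270 bp) matched CASP1 at 77% and CARD16 at 78% over 209 aligned bases. CASP4 and CASP5, the lipopolysaccharide sensors, were 85.7% identical over 1118 bases, whereas CASP1 was 73.6% identical to CASP4 over 792 bases. Of the 7 control peaks, 4 aligned elsewhere in the window at 80% identity or more, and 0 at 95% or more. The CASP4 start peak and both CARD16 peaks aligned over their whole width, the peak before CARD18 over 145 bp (14.5%), and the others not at all. That short piece of the peak before CARD18 had 43 alignments in the window, against 5 or fewer for each other peak. Whether it stems from the duplication of the members was not tested.

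The long copies of the CASP4 start peak and of both CARD16 peaks, 8 alignments in all, had no control peak of their own. Copies of the short aligned piece of the peak before CARD18 were not examined for peaks. The CARD16 start peak aligned to the start of CASP1 at 86.2% identity over 804 bp (chr11:105035017-105035811, centre 164 bp from the closest CASP1 start), where neither list had a peak. The CASP4 start peak had copies of 88.6% identity over 1377 bp in the long CARD16 intron, 87.9% over 1383 bp and, at the start of CASP4LP, 80.4% over 1404 bp. The CARD16 upstream peak had 4 copies of 81.2 to 84.3% identity, which held 1 or 2 forkhead strings each and 0 AP-1 strings, against 3 and 2 in the peak itself. The forkhead string of the CARD16 start peak was also missing from the CASP1 copy. These 30 bases (minus strand, chr11:105045726-105045755 upstream of CARD16 and chr11:105035535-105035564 upstream of CASP1) are shown because they hold that difference, with 26 identical bases and the forkhead string in capitals.
CARD16 copy: attggtgaaaaaTGTTTACatttcttaaag
CASP1 copy: tctggtgaaaaatgtttctatttcttaaag
How reads that fit several copies were assigned is not given in the sources used here, and the part of such reads in these peaks was not tested.

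Other loci of clustered or neighbouring genes gave different counts. Around the 10 SERPINB genes of chromosome 18, which encode intracellular protease inhibitors (chr18:63426958-64069779, 643 kb), 2 of 9 control peaks (22.2%) and 2 of 9 cadmium peaks were in 1 list only, at 1.4 peaks per 100 kb in both lists. Around TNFSF18 and TNFSF4, which encode T cell costimulatory ligands (chr1:172989202-173257331, 268 kb), 9 of 14 control peaks (64.3%) and 0 of 5 cadmium peaks were, at 5.22 and 1.86 peaks per 100 kb. Absence of cadmium-only peaks with many control-only peaks was thus not confined to the caspase cluster among these 3 loci, while at the SERPINB genes both lists had equal numbers. The loci were compared as values side by side, with no test.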

How the data were processed

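CUT&RUN for MTF-1 was performed by the authors on 2 control and 2 cadmium libraries of MDA-MB-231. Per the labels and the study's methods, reads were aligned to hg38 with Bowtie2, handled with SAMtools 1.8, merged by condition and peaks were called with Epic2, an implementation of SICER (the processing notes name SICER 0.0.50). No control library for the calling was named. The deposited values are base pair positions in 2 lists, with a last column that is constant and was not used. They hold no counts or signal, so depth could not be corrected and intervals cover counting error only.

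Peaks with at least 1 shared base in the other list were shared. Distances were measured from peak centres to the starts of GENCODE 44 transcripts. Strings were searched with Python 3.11.15, Wilson intervals were from scipy 1.17.1, and alignments were made with BLAST 2.17.0. Classification was tested on simulated peaks, and the string search on random sequences with 1 string of each kind planted. In both, 100% were recovered, which checks the code and not the accuracy on these data. No test between groups was made. Coding sequences were compared in place of proteins, which were not used here. Some items are not reported here.

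The members, gene lists and comparison loci were chosen with earlier results of these data known. Genes named were the members, genes closest to a peak of the window or bordering the stretch, and pathway genes with a start site peak in 1 list or in neither. Other pathway genes are given as examples and were picked after their values were seen.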

Additional observations from a re-analysis of the deposited data

How the results depend on the processing

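The number of control-only peaks in the window (6) ranged from 5 to 8 when a shared peak had to be covered by at least 50%, when peaks within 1 kb counted as shared, without single-bin peaks, and with no margin, a 100 kb margin or MANE Select ends, the last added after seeing the data. Peak width changed it: with peaks of at least 1000 bp, 1 control-only peak remained, at CASP4, and the window had 0 cadmium peaks, as it also had with MANE Select ends. Widths rise in steps of the 200 bp bin, so peaks of 999 bp fall just below this cut. The peak before CARD18 has that width, which is also the median over all control-only peaks. With cadmium peaks of at least 1000 bp the stretch over the members was 1856 kb in place of 471 kb, and it stayed at 471 kb without single-bin peaks. At that width, members with a control-only start site peak numbered 1 in place of 2, as the CARD16 peak is 799 bp, pathway genes 10 in place of 3, and control-only peaks of the SERPINB locus 0 in place of 2. The other definitions of a start site left 2 members and 3 control-only pathway genes, while cadmium-only pathway genes numbered 0 to 3 in place of 1. Forkhead strings were in 5 or 6 peaks under each span. Alignments of at least 95% identity were found for 0 peaks in place of 4. No paired analysis was possible because the replicates were merged before peaks were called, and for the same reason no replicate could be left out. The depth of the lists is unknown, so absence from the cadmium list is not shown to be absence of binding.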
